A study of Arabidopsis thaliana with 4 samples.

Results

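In 14-day-old Arabidopsis seedlings, 556 stretches of chromosome-arm DNA carried little CG methylation in Col-0 and were listed with a higher level in ndx1-4, with no change listed in the other cytosine contexts at the same place. They are called arm CG-only gains here. They were chosen by their measured levels: a CG region on the 5 nuclear chromosomes with a level in Col-0 under 0.13 and a higher level in ndx1-4, with no listed CHG or CHH region (H is A, C or T) sharing a base with it, and with its midpoint outside the 5 centromere-proximal intervals. They made up 7.92% of the 7023 differentially methylated regions the authors listed, 18.7% of the 2977 CG regions and 50.1% of the 1109 CG-only gains on the arms.

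The libraries were made by bisulfite sequencing, which reads methylated cytosine as C and other cytosine as T, from genomic DNA of whole seedlings. There were 2 libraries of ndx1-4, a mutant of the homeodomain gene NODULIN HOMEOBOX (NDX), and 2 of the wild type Col-0. The labels name no treatment and no other allele, and they do not say whether libraries of a genotype came from separate plants or cultures. The mutant is a single line, so what belongs to the mutation and what belongs to the line cannot be told apart. Per the labels, sequencing gave 15000000 to 17000000 raw reads. Each level is the authors' mean per genotype over both libraries, a fraction from 0 to 1, so no spread between libraries is set beside any level, the depth behind a level is unknown, and no test between genotypes was made. Levels of single libraries were not analysed here. Shares below carry 95% Wilson intervals and medians carry 95% order-statistic intervals, and both cover only the counting of regions, which are not replicates.

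In plants, methylation at CG sites is copied after DNA replication by the maintenance methyltransferase MET1, because the site reads the same on both strands. Many expressed genes carry CG methylation alone within the transcribed part, called gene-body methylation, while transposons and repeats carry it together with CHG and CHH methylation laid down by chromomethylases and the RNA-directed pathway. CG methylation without the other contexts can be passed on through generations and is known to be gained and lost spontaneously in lines propagated apart.

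The following 8 regions are examples of these gains, picked by rank and position, and are not typical of all 556. Most of the 8 overlap no gene, while 68.0% of all members overlap a protein-coding gene. All 8 are longer than the median member (98 bp) and lower in GC content than the median of 40.6%. The first 5 are the members with the largest region statistic of the authors that were no longer than 300 bp, and the last 3 are the first such members that overlap no gene and begin within 1 kb upstream of a gene start. The AT2G15440 region runs past that window, with 202 of its 290 bp inside it. All are plus-strand sequence of the RefSeq copy of TAIR10.1, with each CG site in capitals. The SCAMP4 region ends on the C of a CG site whose G lies beyond the printed stretch.
APRR6, start of the gene, chr1:25566036-25566141: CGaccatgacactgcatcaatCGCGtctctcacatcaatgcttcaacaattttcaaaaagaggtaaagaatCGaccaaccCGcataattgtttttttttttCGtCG
AT5G41430, end of the gene, chr5:16586004-16586211: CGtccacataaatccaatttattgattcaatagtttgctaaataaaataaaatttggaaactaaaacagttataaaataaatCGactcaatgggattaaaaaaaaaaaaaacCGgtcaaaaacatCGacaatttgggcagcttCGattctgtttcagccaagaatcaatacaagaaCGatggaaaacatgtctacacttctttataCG
Between genes, nearest AT5G27340, chr5:9640209-9640426: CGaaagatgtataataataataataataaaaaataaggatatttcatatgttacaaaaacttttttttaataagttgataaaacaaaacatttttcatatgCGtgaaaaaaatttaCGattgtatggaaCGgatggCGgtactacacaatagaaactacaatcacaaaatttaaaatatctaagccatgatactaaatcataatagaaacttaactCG
Between genes, nearest AT1G23210, chr1:8238320-8238451: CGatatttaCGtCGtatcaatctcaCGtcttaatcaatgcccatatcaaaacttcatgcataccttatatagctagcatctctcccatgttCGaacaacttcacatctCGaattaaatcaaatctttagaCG
Beyond the end of AT3G05690, chr3:1676182-1676409: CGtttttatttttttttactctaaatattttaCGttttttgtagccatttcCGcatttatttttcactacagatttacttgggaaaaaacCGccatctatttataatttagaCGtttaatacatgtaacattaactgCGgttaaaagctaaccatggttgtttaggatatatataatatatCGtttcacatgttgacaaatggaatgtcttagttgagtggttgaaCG
Upstream of AT2G15440, chr2:6745634-6745923: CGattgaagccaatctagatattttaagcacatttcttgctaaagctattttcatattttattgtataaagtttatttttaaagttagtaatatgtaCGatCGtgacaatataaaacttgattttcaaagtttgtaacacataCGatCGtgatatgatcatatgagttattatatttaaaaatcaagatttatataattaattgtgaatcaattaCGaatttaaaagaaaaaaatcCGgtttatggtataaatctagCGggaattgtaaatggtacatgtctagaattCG
Upstream of SCAMP4, chr1:888491-888725: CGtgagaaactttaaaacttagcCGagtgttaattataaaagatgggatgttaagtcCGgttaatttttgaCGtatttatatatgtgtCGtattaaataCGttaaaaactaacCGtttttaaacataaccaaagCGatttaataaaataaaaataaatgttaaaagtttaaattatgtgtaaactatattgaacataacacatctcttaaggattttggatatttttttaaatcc
Upstream of RR13, chr2:11560864-11561142: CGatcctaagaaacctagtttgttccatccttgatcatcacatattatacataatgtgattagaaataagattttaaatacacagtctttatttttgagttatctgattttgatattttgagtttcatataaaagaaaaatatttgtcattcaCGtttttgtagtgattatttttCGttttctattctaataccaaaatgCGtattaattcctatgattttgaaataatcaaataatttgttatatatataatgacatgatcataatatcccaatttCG

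Each sequence held 5 to 9 whole CG sites spaced by stretches rich in A and T, and every region began on a CG site. The APRR6 region, 106 bp with 7 CG sites, had a level of 0.771 in ndx1-4 and 0.0474 in Col-0. The AT5G41430 region, 208 bp with 7 sites, had 0.746 in ndx1-4 and 0.0280 in Col-0. Of the regions outside genes, that nearest AT1G23210 reached 0.824 in ndx1-4, against 0.110 in Col-0. Upstream of RR13 the level was 0.767 in ndx1-4 and 0.0627 in Col-0, over only 5 CG sites in 279 bp.

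Over all 556 arm CG-only gains the median level was 0.476 in ndx1-4 (interval 0.456 to 0.492) and 0.0430 in Col-0 (0.0387 to 0.0463). The median difference was 0.421 (interval 0.405 to 0.435), and single differences lay between 0.0797 and 0.827. These values follow in part from the choice of members and are given as a description. In ndx1-4 most members were partly methylated: 245 had a level from 0.4 to 0.6, 164 from 0.2 to 0.4 and 125 from 0.6 to 0.8, while 18 were under 0.2 and 4 reached 0.8 or more. In Col-0 the levels were low but not 0, with a lowest value of 0.00964, and 322 members (57.9%) were under 0.05. How much of these low levels was incomplete bisulfite conversion was not tested.

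The ceiling of 0.13 cut through a continuous range of Col-0 levels. Just inside it were regions in AT3G56210 (0.475 in ndx1-4, 0.1296 in Col-0), MLP34 (0.473 in ndx1-4, 0.1293 in Col-0) and AT4G19070 (0.746 in ndx1-4, 0.1285 in Col-0). Just outside it were regions in AT3G61610 (0.610 in ndx1-4, 0.1303 in Col-0), AT3G63340 (0.823 in ndx1-4, 0.1304 in Col-0) and AT2G45700 (0.769 in ndx1-4, 0.1307 in Col-0).

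**Figure D1:**
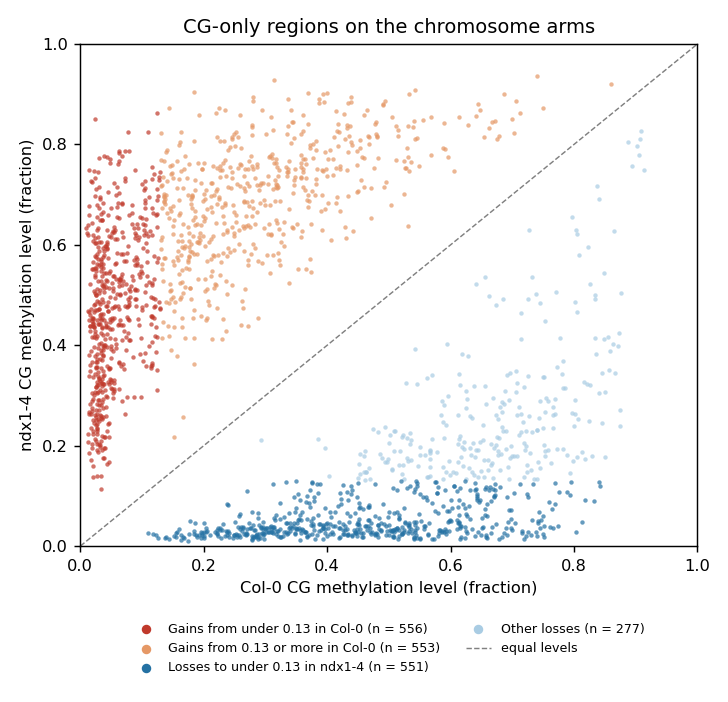
CG methylation level of each CG-only region on the arms in ndx1-4 (vertical axis, fraction) and in Col-0 (horizontal axis, fraction), one point per region. The 556 gains from under 0.13 in Col-0 form the red band at the left, spread from 0.113 to 0.862 in ndx1-4, and the 551 losses to under 0.13 in ndx1-4 form the blue band along the bottom.

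Under the same ceiling, the gains had a counterpart of almost equal number. Among arm CG-only regions, 551 were losses that ended under 0.13 in ndx1-4, here called mirrored losses, so that gains made up 50.2% (47.3% to 53.2%) of the 1107 regions with a genotype under the ceiling. The mirrored losses had a median level of 0.0367 in ndx1-4 and 0.449 in Col-0, and a median difference of −0.403. The higher level was thus 0.476 in the gains, in ndx1-4, and 0.449 in the mirrored losses, in Col-0, with intervals of 0.456 to 0.492 and 0.432 to 0.468 that overlap. On the low side, 57.9% of the gains were under 0.05 in Col-0 (53.8% to 62.0%). Of the mirrored losses, 66.6% were under 0.05 in ndx1-4 (62.6% to 70.4%), and these intervals do not overlap. Both sets were chosen on these levels, so the values are a description only. The other 553 CG-only gains on the arms, called partly methylated gains, started from a Col-0 level of 0.13 or more and had medians of 0.709 in ndx1-4 and 0.271 in Col-0. Losses that ended at 0.13 or more in ndx1-4, called other losses, numbered only 277. Away from the ceiling the numbers were thus unequal, and arm CG-only regions held 1109 gains and 828 losses in all.

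Both levels were used to choose the 556 gains, and a member had to lie above its own Col-0 level in ndx1-4, so how they go together is given only as a description. The median in ndx1-4 was 0.428 for the 159 members under 0.03 in Col-0, 0.435 for the 163 from 0.03 to 0.05, 0.521 for the 157 from 0.05 to 0.1 and 0.567 for the 77 above that. Over the 556 members, Pearson's r was 0.341 and Spearman's rho 0.332, for points that share the libraries, a ceiling on one axis and that condition. By number of counted cytosines, the medians in ndx1-4 were 0.530 for up to 5 cytosines (125 members), 0.478 for 6 to 8 (216), 0.425 for 9 to 12 (129) and 0.396 for more than 12 (86). Against the number of cytosines, Pearson's r was −0.249 and Spearman's rho −0.288, and against CG sites per 100 bp they were −0.318 and −0.328. Length went the other way, with r of 0.209 and rho of 0.183, and a median level of 0.537 in ndx1-4 for the 105 longest members. The authors listed only regions that passed their caller, and how far a larger number of cytosines lets a smaller difference pass was not tested.

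The gains were short. Their median length was 98 bp (93 to 102), from 51 to 771 bp, with a median of 7 counted cytosines, from 4 to 30, where both strands of a site count. The reference holds 5731 CG cytosines in the members, of which 4732 (82.6%) were counted by the authors, and in 294 members (52.9%) all of them were counted. Median CG density was 4.68 sites per 100 bp (4.43 to 4.96), against 2.33 over all arm sequence, and median GC content was 40.6%, against 35.9% over the arms. Since each region starts and ends on a CG site and holds at least 4 counted cytosines, part of that density is set by how regions are drawn. Mirrored losses had nearly the same values, a median length of 99 bp and 4.62 CG sites per 100 bp. On both strands, the base just before the CG was A in 26.6%, C in 20.7%, G in 16.3% and T in 36.3% of the members' sites, against 29.4%, 21%, 15.3% and 34.3% over the arms.

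**Figure D2:**
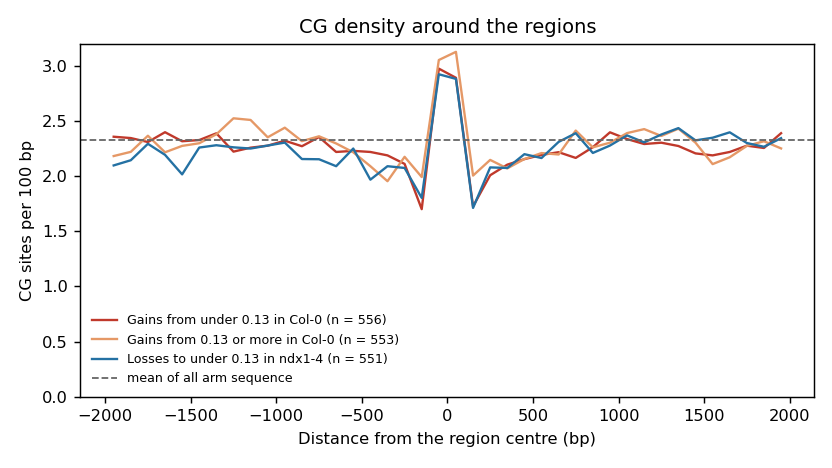
CG sites per 100 bp (vertical axis) in 100 bp bins against distance from the region centre in bp (horizontal axis), for gains from under 0.13 in Col-0, gains from 0.13 or more and losses to under 0.13 in ndx1-4, with the arm mean as a dashed line. In the gains from under 0.13 the density was 2.97 and 2.89 in the bins next to the centre, 1.70 and 1.73 in the next bins out, and 2.11 and 2.01 in the bins after those, against an arm mean of 2.33.

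The CG-dense stretch was narrow. The bins next to the centre of the gains held 2.97 and 2.89 sites per 100 bp, and the bins centred 150 bp away held 1.70 and 1.73, below the arm mean. From 1 kb outwards the density around the gains lay near the arm mean.

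By annotation, 378 of the 556 gains (68.0%, 64.0% to 71.7%) overlapped a protein-coding gene. By midpoint, the measure closer to a share of single sites, 66.2% lay inside such a gene, beside 69.0% of arm CG sites. Coding sequence was touched by 325 gains (58.5%), and 182 (32.7%) lay wholly inside it. Midpoints fell in coding sequence for 269 gains (48.4%, against 48.1% of arm CG sites), in an untranslated exon for 39 (7.01%, against 11.2%) and in an intron for 60 (10.8%, against 9.78%). Another 62 midpoints (11.2%, against 12.8% of arm CG sites) lay within 1 kb upstream of a gene. In another gene record, such as a pseudogene or non-coding RNA, lay 12 (2.16%, against 4.43%), and 114 (20.5%, against 13.8%) lay in none of these.

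Upstream of genes, the gains from under 0.13 differed from the partly methylated gains in share, with 62 of 556 midpoints there (11.2%, 8.80% to 14.0%), against 103 of 553 (18.6%, 15.6% to 22.1%), and the mirrored losses had 70 of 551 (12.7%). No test was made of this difference. Of the 114 gains in none of the classes, 44 (38.6%, 30.2% to 47.8%) had their midpoint within 1 kb beyond the end of a gene. Among sites or regions in none of the classes, this held for 34.5% of arm CG sites, 32.2% of partly methylated gains and 28.1% of mirrored losses. The remaining 70 of the 114 gains (12.6% of all, 10.1% to 15.6%) were farther from genes on both sides. There lie 9.03% of arm CG sites, and the share of mirrored losses there was 12.5%. Transposable elements are not in the annotation used, so whether these 70 lie in transposons was not tested.

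**Figure D3:**
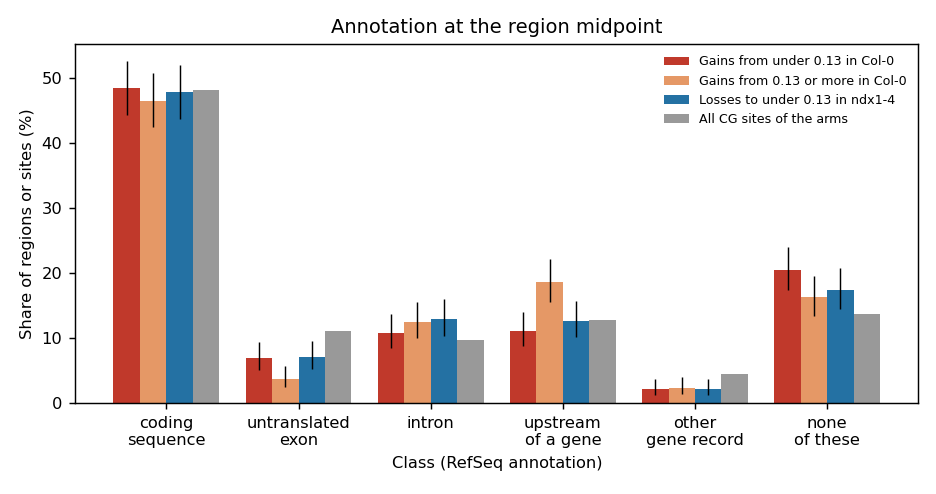
Share of regions by annotation class at the midpoint (vertical axis, %; bars with 95% Wilson intervals) for gains from under 0.13 in Col-0, gains from 0.13 or more, losses to under 0.13 in ndx1-4, and all CG sites of the arms (no interval). The gains from under 0.13 stand at 48.4% in coding sequence beside 48.1% of arm CG sites, and at 11.2% upstream of genes beside 18.6% of the gains from 0.13 or more.

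The classes differed in sequence and, with mostly overlapping intervals, in level. In ndx1-4 the median level was highest for the 60 gains in introns, at 0.542 (0.479 to 0.601). It was 0.486 (0.462 to 0.512) in coding sequence, 0.466 (0.440 to 0.510) upstream of genes and 0.453 (0.369 to 0.587) in untranslated exons. The 114 outside all classes had 0.414 (0.365 to 0.472). In Col-0 the medians of these 5 classes lay between 0.0347 and 0.0495. GC content was 45.4% in coding sequence, 36.2% in introns, 31.3% upstream and 31.8% outside all classes, and CG density was 5.80 sites per 100 bp in coding sequence and 3.59 in introns.

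**Figure D4:**
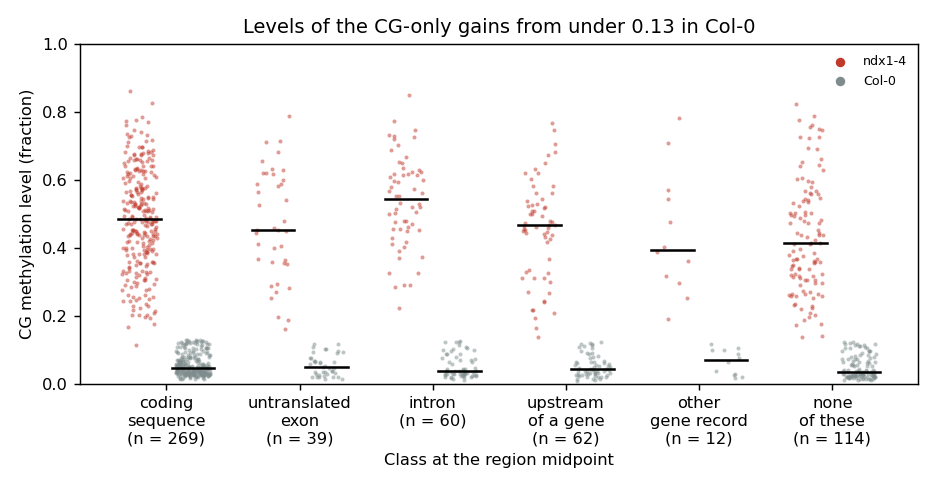
CG methylation level (vertical axis, fraction) of each of the 556 gains in ndx1-4 (red, left of each pair) and in Col-0 (grey, right), by annotation class at the midpoint, with medians as black lines. The ndx1-4 medians run from 0.542 in introns to 0.395 in the 12 regions of other gene records.

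Few genes held such a gain. In all, 376 of the 25995 protein-coding genes on the arms (1.45%) held at least a single member, and 5 of these held 2. Genes with a member had a median length of 2712 bp and 6 exons, against 2097 bp and 4 exons over all arm genes. Drawing a base at random from arm genes gives a median of 2918 bp and 6 exons, and 9.31% of such bases are in genes of 1 exon, against 9.04% of the genes with a member.

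Inside genes the gains lay toward the end, as did the other arm CG-only sets. For the 368 members with their midpoint in a gene, the median position was 62.2% of the way from the start (55.7% to 66.3%), and the median distance was 1502 bp from the start and 858 bp to the end. The median position was farther along in the other sets, at 68.2% in partly methylated gains, 64.3% in mirrored losses and 68.8% in other losses. Of 10 equal segments of the gene, the first held 5.98% of the members and the ninth held 17.1%. These segments hold 13.3% and 10.8% of the CG sites of the same genes. The ninth segment held 21.9% of partly methylated gains, 17.7% of mirrored losses and 20.8% of other losses. Within 500 bp of the gene start lay 55 members (15.0%, 11.7% to 19.0%), against 6.05% (3.99% to 9.07%) of the partly methylated gains and 10.5% (7.74% to 14.0%) of the mirrored losses. Genes with a region had a median length of 2712 bp for the members, 2972 bp for the partly methylated gains and 2918 bp for the mirrored losses. How far gene length bears on the share near the gene start was not tested. The difference in share between the sets was not tested either, since regions are not replicates.

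**Figure D5:**
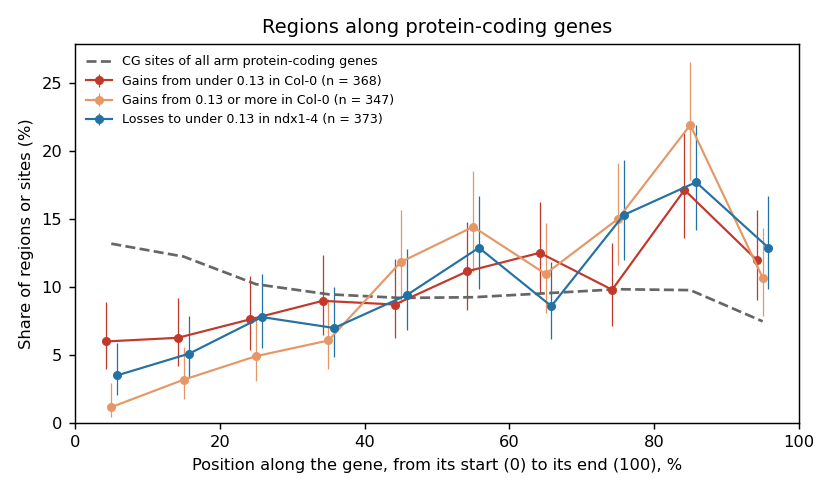
Share of regions in each of 10 equal segments of the gene (vertical axis, %; points with 95% Wilson intervals) from gene start to gene end (horizontal axis, %), for gains from under 0.13 in Col-0, gains from 0.13 or more and losses to under 0.13 in ndx1-4, with CG sites of all arm genes as a dashed line. The first segment held 5.98% of the gains from under 0.13, 1.15% of the gains from 0.13 or more and 3.49% of the losses.

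Among the 12 gains with the largest region statistic, several lay at the edges of genes. The APRR6 region had its midpoint 105 bp inside this pseudo-response regulator gene (AT1G68210, chr1:25565983-25569302), with 62 bp of coding sequence and 44 bp of intron. The AT5G41430 region held 93 bp of coding sequence at the end of this gene for a RING/U-box protein, and 115 bp beyond the gene that count as upstream of AT5G41420. In DOX1 (AT3G01420), which encodes an alpha-dioxygenase acting on fatty acids, only 3 bp overlapped the gene end. There the level was 0.662 in ndx1-4 and 0.0342 in Col-0. A 228 bp region lay 95 bp beyond the end of AT3G05690 (NF-YA2, a subunit of the nuclear factor Y transcription factor), with 0.593 in ndx1-4 and 0.0368 in Col-0. Gene ends and DNA outside genes thus stood side by side among these regions.

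AGL17 (AT2G22630), a MADS-box gene that promotes flowering, held the largest difference of all members. Its region was 57 bp of intron with 4 CG sites (chr2:9620182-9620238), and the level was 0.851 in ndx1-4 and 0.0243 in Col-0, a difference of 0.827. The next largest differences were 0.749 in AT3G05280, a Yip1 family membrane protein (0.826 in ndx1-4, 0.0768 in Col-0), and 0.743 in AT4G09950, a nucleoside triphosphate hydrolase (0.773 in ndx1-4, 0.030 in Col-0). The highest level of any member in ndx1-4 was 0.862 in DES1 (AT5G28030), which makes hydrogen sulfide from cysteine, against 0.125 in Col-0. AT4G09950 rested on 4 of the 7 reference cytosines and AT3G05280 on 6 of 11, while all 8 in AGL17 and all 12 in DES1 were counted.

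Others of the 12 lay mainly in coding sequence or away from genes. The AT5G41640 region held 216 bp of coding sequence and 13 bp beyond the gene end (0.596 in ndx1-4, 0.0288 in Col-0). In AT5G45020, a glutathione S-transferase family gene, the region held 145 bp of coding sequence (0.604 in ndx1-4, 0.106 in Col-0). A region wholly in an untranslated exon of AT2G33370, a ribosomal protein gene, had a smaller difference, with 0.399 in ndx1-4 and 0.0494 in Col-0 over 24 cytosines. Outside genes, a 68 bp region 1639 bp upstream of LOX1 (AT1G55020, a lipoxygenase) had 7 CG sites and levels of 0.629 in ndx1-4 and 0.0267 in Col-0.

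The longest gain covered 771 bp between genes (chr3:8365402-8366172), with 16 cytosines, a GC content of 21.1%, and 0.503 in ndx1-4 against 0.0641 in Col-0. In TOPP3 (AT1G64040, a type one protein phosphatase) a 487 bp region lay wholly in coding sequence with 0.774 in ndx1-4 and 0.0426 in Col-0, but only 4 of its 26 reference cytosines were counted. The other long regions were 324 bp of intron in the F-box gene AT5G10340 (0.617 in ndx1-4, 0.0951 in Col-0), 303 bp in LHW, a regulator of root vascular development (0.666 in ndx1-4, 0.0370 in Col-0), and 302 bp in the pseudogene AT1G19560 (0.709 in ndx1-4, 0.104 in Col-0). In LHW only 8 of 15 reference cytosines were counted, against 16 of 18 in AT5G10340 and 18 of 19 in AT1G19560.

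The 5 genes with 2 members each were SLAH1, AT1G76780, AT3G45700, AT3G46480 and AT3G48450. In SLAH1, an anion channel homologue, both regions had similar levels, 0.469 and 0.389 in ndx1-4 against 0.0447 and 0.0522 in Col-0. In AT3G48450, a gene of the RIN4 family, the levels differed, with 0.761 at the gene end and 0.213 near the start in ndx1-4, against 0.0609 and 0.0245 in Col-0.

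In no gene but upstream of one lay the regions printed above for AT2G15440, SCAMP4 and RR13, at 799, 535 and 649 bp from the gene. SCAMP4 encodes a secretory carrier membrane protein and RR13 a type-B response regulator of cytokinin signalling. Their levels in ndx1-4 were 0.522, 0.510 and 0.767, against 0.0387, 0.0882 and 0.0627 in Col-0. Closer to a gene was a 193 bp region 5 bp upstream of AT2G23400, a gene of the undecaprenyl pyrophosphate synthetase family (0.510 in ndx1-4, 0.0312 in Col-0). A 65 bp region 214 bp upstream of AT5G27340 (0.706 in ndx1-4, 0.0443 in Col-0) and the printed region 3325 bp beyond the end of the same gene (0.777 in ndx1-4, 0.0383 in Col-0) flanked it on both sides.

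Overlap was also counted for listed genes of pathways in which NDX and DNA methylation have been placed. Members overlapped 0 of 29 arm genes of DNA methylation and small RNA pathways, 0 of 16 Polycomb and histone methylation genes, 0 of 17 abscisic acid genes and 1 of 22 flowering-time genes, beside 1.45% of all arm genes, and 0 lay within 1 kb upstream of a listed gene. The listed gene with a member was FVE (AT2G19520), a histone-binding WD40 protein that represses the flowering repressor FLC. The FVE region (chr2:8458105-8458189, 85 bp, 79 bp of it coding) had 0.733 in ndx1-4 and 0.0730 in Col-0, on 4 of 5 reference cytosines. AGL17, named above as promoting flowering, was not on the list. At 1.45%, lists of this size would each hold less than 1 such gene, so nothing particular to them can be read from these counts. Outside the lists, and named after its values were seen, DMT2 (AT4G14140), annotated as a DNA methyltransferase, held a region with 0.195 in ndx1-4 and 0.0403 in Col-0.

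By words in the RefSeq product names, a grouping made after the members were known, 18 of 447 arm genes named as transporters held a member (4.03%, 2.56% to 6.28%), as did 30 of 1347 named as kinases (2.23%, 1.56% to 3.16%) and 14 of 651 F-box genes (2.15%, 1.29% to 3.58%), beside 1.45% of all arm genes. Shares were 1.32% of 987 genes named for transcription factors or DNA binding, 1.13% of 797 zinc finger or RING genes and 0.990% of 303 pentatricopeptide repeat genes. Transporter genes made up 4.79% of the genes with a member and hold 2.04% of arm gene sequence. For kinases, whose genes are longer, these shares were 7.98% and 6.88%, and for F-box genes 3.72% and 1.56%. No test was made of these shares.

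The gains were sparse along the chromosomes, as were the sets most like them. The nearest other gain of this kind lay at a median of 57.9 kb, and 16 of the 556 (2.88%) had another within 1 kb. Counted in the same way within their own set, partly methylated gains had 58.6 kb and 3.3%, and mirrored losses 55.8 kb and 3.3%. Whether this spacing departs from an even spread was not tested. A partly methylated gain lay within 1 kb of 11 and a mirrored loss of 9. Any listed region of any context lay within 1 kb of 62 (11.2%), and a CHG or CHH region within 500 bp of 14, of which 12 had a gain there and 2 a loss. Of the partly methylated gains, 19 had a CHG or CHH gain within 500 bp and 7 a loss, and of the mirrored losses 17 and 7. By chromosome, there were 5.79 gains per Mb of arm on chromosome 1, 6.56 on chromosome 2, 6.0 on chromosome 3, 4.61 on chromosome 4 and 5.38 on chromosome 5. The 92 windows of 1 Mb on the arms held 0 to 14 gains, with a median of 5, and 2 windows held none.

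Few genes with a member held another arm CG-only region of a different kind. Of the 376 genes, 8 held a partly methylated gain as well, 8 a mirrored loss (2.13%, 1.08% to 4.14%, beside 1.44% of all arm genes) and 1 another loss, together 17 (4.52%, 2.84% to 7.12%). That share is near the background, since 3.54% of all arm genes held a region of those sets, and nothing particular to these genes can be read from it. In MSL4, a mechanosensitive channel, a gain (0.445 in ndx1-4, 0.0411 in Col-0) and a loss (0.0263 in ndx1-4, 0.530 in Col-0) lay 253 bp apart. In SOS3, a calcium sensor of salt tolerance, a gain (0.396 in ndx1-4, 0.0378 in Col-0) and a loss (0.0388 in ndx1-4, 0.260 in Col-0) lay 124 bp apart. In BPM2, a BTB and MATH domain protein, both regions were gains, with 0.641 and 0.869 in ndx1-4 against 0.0835 and 0.294 in Col-0.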

How the data were processed

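Bisulfite libraries of ndx1-4 and Col-0 seedlings (2 each) were grouped by sample title. The authors deposited a table of differentially methylated regions with a level per genotype, a fraction from 0 to 1 averaged over libraries, and the number of cytosines in each region. Bismark and the TAIR10 build are named in the submitters' processing notes. The region caller, its thresholds and all versions are not given in the sources used here. The deposited area statistic, a score from the authors' own comparison, served only to rank regions, and the deposited difference was not used: differences were recomputed from the levels. The per-context region lists were not used. Coverage and single-library levels were not analysed here, so the precision of a level is unknown.

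Members and gene lists were chosen with earlier results of these data known. Coordinates, taken as 1-based, were checked on RefSeq TAIR10.1: both ends lay on a CG cytosine in 100% of the 556 members. Classes were assigned from the RefSeq annotation in the order coding sequence, untranslated exon, intron, 1 kb upstream, other gene record, none. Transposable elements are not annotated there. Genes overlapping in the annotation can share a region. The text names the 12 members with the largest area statistic, the 5 longest, the 5 with the largest difference, genes holding 2 members, members in or upstream of list genes, the 5 upstream members outside genes and the 3 intergenic members with the largest area statistic, and the 3 on each side of the ceiling. Genes named for a mixture of gains and losses and from product words were chosen after their values were seen. Alternatives changed the ceiling, the distance to other contexts, the minimum difference, the area statistic, merging, the arm limits and the annotation rule. Python 3.11.15, pandas 2.3.3, numpy 2.4.6 and scipy 1.17.1 were used, and the assignment of regions was tested on simulated data.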

Additional observations from a re-analysis of the deposited data

How the results depend on the processing

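Of 58 values recomputed under the alternatives, 48 stayed within the counting interval or within 1.5 times the count, and 10 moved. Counts, lengths, densities, levels and gene shares have no direction, and the rule sets that of the difference. Only the share of gains, above or below 50%, could change sides. With a Col-0 ceiling of 0.05 there were 322 members, the median difference was 0.397, the median level in ndx1-4 was 0.430, and gains made up 46.7% of regions with a genotype under that ceiling. With a ceiling of 0.20 the median level in ndx1-4 was 0.510. Keeping the upper 50% by area statistic left 278 members, with a median length of 116 bp, 5.30 CG sites per 100 bp, 60.1% overlapping a protein-coding gene and 51.4% overlapping coding sequence, and in the lower 50% these shares were 75.9% and 65.5%. The ceilings and the 50% set the first of these values by construction, and the cause of the shift in gene share was not tested. No paired analysis was possible because the table used holds a single mean per genotype, and leaving out each library in turn was not run for the same reason. Levels of single libraries were not analysed here. Depth is unknown, so no limit on the detection of smaller gains can be given, and places outside the authors' list may also have changed.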

Other observations

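After the values had been seen, genes of the exocyst, the complex that tethers secretory vesicles to the plasma membrane, were found among the genes with an arm CG-only gain. Of 33 arm genes with exocyst names in the annotation, 5 held a member, beside 1.45% of all arm genes, and no test was made of a group picked in this way. The levels were 0.730 in ndx1-4 and 0.116 in Col-0 in SEC8, 0.539 in ndx1-4 and 0.0529 in Col-0 in SEC3B, and 0.511 in ndx1-4 and 0.0270 in Col-0 in SEC5A. In EXO70C1 they were 0.310 in ndx1-4 and 0.0323 in Col-0, and in SEC6 0.160 in ndx1-4 and 0.0202 in Col-0.

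The next 4 members were also picked after their values were seen and form no group. The region in FAS1, a subunit of chromatin assembly factor 1, had 0.395 in ndx1-4 and 0.0286 in Col-0, and that in SWI3C, a subunit of a chromatin remodelling complex, had 0.562 in ndx1-4 and 0.0341 in Col-0. In FLS2, the receptor kinase that binds bacterial flagellin, the level was 0.576 in ndx1-4 and 0.0898 in Col-0. MUG7, annotated as a MuDR family transposase gene, had 0.229 in ndx1-4 and 0.0278 in Col-0.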
